A study of Mus musculus with 5 samples.

Results

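The Ifi200 genes of mouse chromosome 1 encode the interferon-inducible PYHIN proteins, and 10 of them (Ifi203, Ifi204, Ifi205, Ifi206, Ifi207, Ifi208, Ifi209, Ifi211, Ifi213 and Ifi214) are described here out of 30478 genes in the deposited table. They were chosen by symbol for their measured values in the wt against mutant comparison, with Ifi208 included for moving opposite to the other 9. Their values in this comparison are therefore a description and carry no test. In C57BL/6 peritoneal macrophages isolated by FACS, 3 wt libraries were set against 2 libraries from mice that were both Samhd1 del/del and cGAS-GFP ki/ki, called mutant below. The library wt 1 came from a 13-week male, wt 2 from a 13-week female and wt 3 from a 9-week female, whereas both mutant libraries came from 8-week females. The mutant mice carry both alleles, so effects of the Samhd1 deletion and of the cGAS-GFP knock-in cannot be told apart, and neither age nor sex is balanced between the groups. What the cells of the mutant mice retain of SAMHD1 or cGAS protein was not measured.

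PYHIN proteins pair a pyrin domain, which binds other pyrin domains, with a HIN-200 domain, which binds DNA, although some members hold only 1 of these domains. Type I interferon switches on many of the genes through the transcription factor ISGF3, which binds interferon-stimulated response elements in promoters. In macrophages AIM2, a PYHIN protein, binds cytosolic DNA and recruits ASC and caspase-1 into an inflammasome, and p204, the product of Ifi204, has been linked to interferon production after DNA sensing through STING. SAMHD1 is a dNTP hydrolase, and cGAS is the DNA sensor that makes the second messenger for STING.

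The libraries held 33119434, 30817815 and 30026622 reads in wt 1 to 3 and 28517346 and 27282354 reads in mutants 1 and 2. Values are normalized counts, which are reads divided by a size factor of the library. Samhd1 stood at 17824, 16777 and 18274 in wt 1 to 3 and at 1279 and 1431 in the mutants (log2 fold change -3.70, SE 0.0798, limma adjusted p = 1.4e-05), and Cgas stood at 974.1, 1211 and 967.7 against 184.0 and 85.1 (-3.04, SE 0.308, limma adjusted p = 0.00391). Macrophage markers were detected for 12 of 12 listed genes, and their summed level was 10321 to 12125 CPM (reads scaled to the library total) in wt and 16940 to 26447 CPM in the mutants. Without the lysozyme gene Lyz2 the sums were 6144 to 7143 and 6682 to 9251 CPM, which overlap; Lyz2, Mertk and Cd163 rose, Fcgr1 fell (-1.52, limma adjusted p = 0.00123), and the list's median log2 fold change was 0.20. Of 14 large peritoneal macrophage genes in the table, 8 were tested and 1, Icam2, fell (-0.99, limma adjusted p = 0.0184). Cd9 was the most abundant of them at 4393 to 5242 normalized counts over the 5 libraries, while the defining markers Gata6 and Timd4 had 0 reads in all of them. Of 12 genes of monocytes, small peritoneal macrophages or dendritic cells, 9 were tested and 1, Ly6c2, fell (-2.08, limma adjusted p = 0.00367). Ccr2 was the most abundant of these at 11526 to 21241 normalized counts and H2-Aa stood at 1478 to 3135. For both genes the groups overlapped. The sums of this list were 625 to 946 CPM in wt and 507 to 768 CPM in the mutants. B cell markers summed to 97.2 to 121 CPM in wt and 203 to 232 CPM in the mutants, mostly from Ighm, the only one called; without it the sums were 18.1 to 21.6 and 24.7 to 32.8 CPM. T and NK cell markers, mostly Cd4, summed to 9.41 to 12.4 against 23.9 to 42.8 CPM, and to 1.12 to 1.17 against 0.55 to 1.19 CPM without Cd4. The ribosomal RNA gene Rn18s took 0.599% to 1.64% of reads in wt and 5.28% and 4.04% in mutants 1 and 2. The part of these differences in the results below was not tested, and in bulk RNA fewer cells of a type and less RNA per cell cannot be told apart.

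In both mutant libraries 9 of the 10 genes lay below all 3 wt libraries, and Ifi208 lay above them. For comparison, both mutant libraries lay below all wt libraries for 26.9% of the 14977 genes that reached a normalized count of 10 in at least 2 libraries. The share with both mutant libraries above all wt libraries was not counted, so the separation of Ifi208 has no such comparison. In the limma fit over those genes, 9 of the 10 were called lower, as were 4.89% of all genes, and 1 was called higher, as were 3.71%; in either direction 8.6% of genes were called. In the authors' deposited table all 10 genes had an adjusted p under 0.05, as did 7.17% of its genes. These counts follow from how the genes were chosen. All 10 passed the filter on low values, Ifi208 only through the mutant libraries and Ifi214 only through the wt libraries. The median log2 fold change of the 10 genes was -2.57, that of all genes tested was 0.000331, and the 5th and 95th percentiles of all genes were -0.92 and 0.75. Among the 9 lower genes the fold change ran from -0.75 for Ifi207 to -4.70 for Ifi213, with a median of -2.76.

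**Figure D1:**
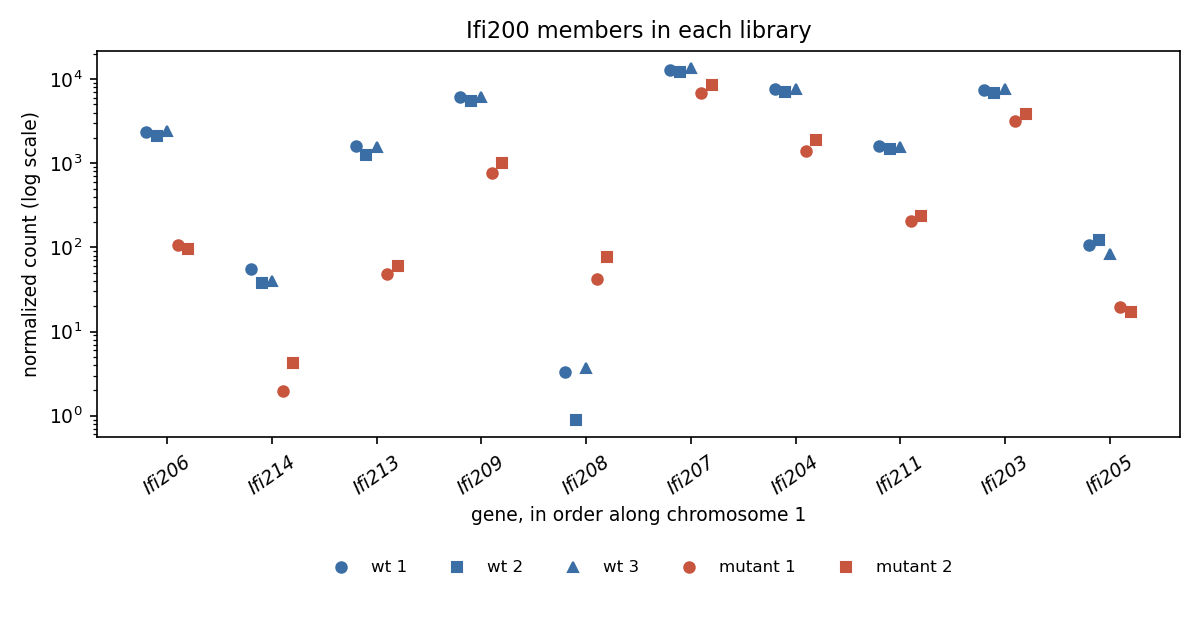
Normalized count of each of the 10 Ifi200 genes in every library (points, log10 axis), with wt and mutant libraries in separate colours, ordered by position on chromosome 1. The mutant points lie below the wt points for 9 genes and above them for Ifi208, and the gap is smallest for Ifi207 and largest for Ifi213.

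Per kilobase of exon, the 10 genes spanned a wide range of levels in wt macrophages. Ifi207, which has been linked to cytokine transcription in mouse macrophages, was the most abundant at 135 ± 5.97 RPKM, which is CPM per kilobase (SD, n = 3). Ifi204 followed at 75.3 ± 3.14, Ifi209 at 60.4 ± 4.33, Ifi203 at 39.2 ± 1.77, Ifi211 at 31.3 ± 1.26 and Ifi206 at 27.0 ± 1.81 RPKM. Ifi213 stood at 7.74 ± 1.02, Ifi205 at 0.900 ± 0.174, Ifi214 at 0.197 ± 0.0426 and Ifi208 at 0.0182 ± 0.0104 RPKM. The ranges of the 3 wt libraries did not overlap between any neighbours in this order. In the mutants Ifi207 was again highest at 78.2 ± 9.68 RPKM (SD, n = 2), followed by Ifi203 at 18.4 ± 1.98 and Ifi204 at 16.3 ± 3.09, whose ranges overlapped. Ifi208 went from the last place in wt to 0.398 ± 0.157 RPKM, its lower mutant library lying between the Ifi213 values of the 2 mutants.

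The genes lie in a 563 kb stretch of chromosome 1 in the order Ifi206, Ifi214, Ifi213, Ifi209, Ifi208, Ifi207, Ifi204, Ifi211, Ifi203 and Ifi205, from base 173468485 to base 174031810 of GRCm38. Ifi209 and Ifi208 are on the plus strand and the other 8 on the minus strand. All 10 are annotated as protein coding in GENCODE M21.

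Promoter sequences are shown because type I interferon switches on many such genes through the response element. The part of these sequences in the changes between wt and mutant was not tested. The windows run from 250 bases before to 50 after a RefSeq start on GRCm38.p6, and 9 of the 10 genes matched one; Ifi204 is named only. Both strands were searched for GAAANNGAAA, the core of the interferon-stimulated response element (ISRE). It was found in windows of 8 of the 9 genes, in those of 3.99% of all 27025 genes and in 3.44% of all 32851 windows. GGAANNGAAA, the ETS and IRF composite element, which shares 9 of the 10 letters of the ISRE and cannot match in the same place, had 0 matches in the 9 genes against 3.16% of all genes and 2.72% of all windows. TTCNNNGAA, the gamma-activated site, likewise had 0 matches in the 9 genes against 9.55% of genes and 8.30% of windows. These letters not being found says nothing about the factors. Below, 60 bases of 9 genes are given 5′ to 3′ on the strand of the gene, with the ISRE letters in capitals; for Ifi209 the capitals mark the bases aligned with the match of Ifi214.
Ifi206: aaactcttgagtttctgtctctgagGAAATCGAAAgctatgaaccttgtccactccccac
Ifi213: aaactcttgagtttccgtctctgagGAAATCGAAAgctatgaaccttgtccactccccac
Ifi208: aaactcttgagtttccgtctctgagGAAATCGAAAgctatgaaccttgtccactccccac
Ifi214: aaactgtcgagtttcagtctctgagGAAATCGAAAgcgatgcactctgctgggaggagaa
Ifi209: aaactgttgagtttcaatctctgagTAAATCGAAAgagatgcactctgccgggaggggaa
Ifi207: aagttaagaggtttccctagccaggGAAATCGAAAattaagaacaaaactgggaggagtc
Ifi211: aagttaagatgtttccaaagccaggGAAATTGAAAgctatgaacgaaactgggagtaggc
Ifi205: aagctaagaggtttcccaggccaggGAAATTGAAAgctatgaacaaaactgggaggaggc
Ifi203: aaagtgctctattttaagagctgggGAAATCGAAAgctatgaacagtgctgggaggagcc

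These stretches lie at chr1:173491324-173491383 (minus strand) for Ifi206, chr1:173599311-173599370 (minus) for Ifi213 and chr1:173673582-173673641 (plus) for Ifi208. Those of Ifi214 and Ifi209 lie at chr1:173536002-173536061 (minus) and chr1:173630755-173630814 (plus). Those of Ifi207, Ifi211, Ifi205 and Ifi203 lie at chr1:173741816-173741875, chr1:173913049-173913108, chr1:174031855-174031914 and chr1:173942493-173942552, all on the minus strand. The first base of the match lay 40 bases before the RefSeq start in Ifi206, 73 in Ifi213, 58 in Ifi208, 79 in Ifi214, 41 in Ifi207, 37 in Ifi211, 134 in Ifi205 and 35 in Ifi203, counted from the start that its window is built on. Ifi205 had a second match, on the other strand and after its start.

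The stretches of Ifi213 and Ifi208 differed at 0 of 60 bases, while Ifi213 had the largest fall of the 10 genes and Ifi208 was the only one that was higher. Ifi206 differed from Ifi213 at 1 base, written C16T from Ifi213 to Ifi206, with positions counted from 1 at the 5′ end of the printed stretch. From Ifi214 to Ifi209 the stretch changed at 6 bases (C8T, G17A, G26T, C37A, T50C and A57G), of which G26T falls on the first base of the capitals and leaves no match there. Both Ifi214 and Ifi209 were lower in both mutants. From Ifi211 to Ifi205 the bases T4C, T10G, A17C, A19G, G45A and T56G differed, and Ifi207 and Ifi205 differed at 8 bases. Whole windows were also aligned, and the share of identical bases was taken over all alignment columns, gaps included. It was 95.4% of 301 columns for Ifi214 and Ifi209 and 89.5% of 315 for Ifi213 and Ifi208. The share was 87.5% of 319 for Ifi206 and Ifi208, 85.9% of 304 for Ifi207 and Ifi211, and 78.7% of 334 for Ifi206 and Ifi213. Gaps count as not identical, so windows set off from each other by their RefSeq starts have a lower share. The order of these shares is therefore not an order of likeness in the bases. A match is a description of the letters and not evidence of a bound site.

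Ifi206 and Ifi213, whose printed stretches differ at that single base, had the largest falls. Ifi206 stood at 2341, 2107 and 2399 in wt 1 to 3 and at 107.6 and 95.7 in mutants 1 and 2. Its mutant libraries kept 4.72% and 4.19% of the wt mean, a log2 fold change of -4.46 (SE 0.101), and no wt library came near them. Ifi213 stood at 1584, 1243 and 1564 in wt and at 48.9 and 59.5 in the mutants, a log2 fold change of -4.70 (SE 0.151) and 3.71% of the wt mean. Of the 14977 genes tested, 4 had a fold change at or below that of Ifi213 and 8 at or below that of Ifi206, counting the gene itself.

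Ifi209, Ifi211 and Ifi204 formed a middle range, keeping between 14.3% and 22.3% of their wt means. Ifi209 stood at 6198, 5443 and 6131 in wt and at 760.4 and 995.1 in the mutants (log2 fold change -2.76, SE 0.128). Ifi211 stood at 1592, 1480 and 1565 against 208.4 and 235.0 (-2.79, SE 0.0913). Ifi204 stood at 7534, 7055 and 7640 in wt against 1399 and 1905 in the mutants (-2.18, SE 0.133). Its product p204 is often set beside human IFI16, and it is the member of this group with the best known part in DNA sensing. In all of them mutant 1 was the lower of the 2 mutant libraries, and the groups did not overlap.

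Ifi203 and Ifi207 kept the most of their wt level. Ifi207 stood at 12765, 12194 and 13403 in wt and at 6818 and 8445 in the mutants, which is 59.7% of the wt mean (log2 fold change -0.75, SE 0.106). The highest mutant library was still below the lowest wt library. Ifi203, whose product has been studied in the response to retroviral DNA, stood at 7318, 6893 and 7569 against 3184 and 3855, or 48.5% of the wt mean (-1.05, SE 0.0989). Among the 9 lower genes, Ifi207, the most abundant, had the smallest log2 fold change and Ifi203, the fourth most abundant, the next smallest.

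Ifi205 and Ifi214 were scarce in both groups. Ifi205, whose product p205 has been linked to expression of the inflammasome adaptor ASC, stood at 105.3, 122.9 and 83.4 in wt and at 19.6 and 17.0 in the mutants (log2 fold change -2.37, SE 0.227). It was the only one of the 10 genes whose lowest wt library was wt 3. Ifi214 rested on 66, 42 and 43 reads in wt and on 2 and 4 reads in the mutants, or 54.7, 37.7 and 39.9 against 1.96 and 4.25 normalized counts (-3.19, SE 0.328). From the summed reads, its CPM in wt was 14.9 times that in the mutants, with an exact 95% interval of 6.71 to 41.4 that covers counting error only. The fitted fold change is smaller than this because 2 was added to every normalized count before taking log2.

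Ifi208 was nearly silent in wt and low in the mutants. It had 4, 1 and 4 reads in wt 1 to 3 and 43 and 73 reads in mutants 1 and 2, which are 3.32, 0.897 and 3.71 normalized counts against 42.1 and 77.6. Both mutant libraries exceeded every wt library, and mutant 2 was 1.84 times mutant 1. Its CPM over the summed reads was 21.7 times higher in the mutants, with an exact 95% interval of 11.05 to 48.7 for counting error only. The log2 fold change on the scale with 2 added was 3.74 (SE 0.447), and 3 of all genes tested, itself included, had a fold change that high. In the authors' deposited table, which gives wt over mutant, the log2 fold change was -1.68 for Ifi208, 3.64 for Ifi213 and 3.59 for Ifi206. These are smaller in size than the limma values. The authors' settings were not stated and their fit may have used other libraries, so the values are not directly comparable. The cause of the difference was not tested.

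**Figure D2:**
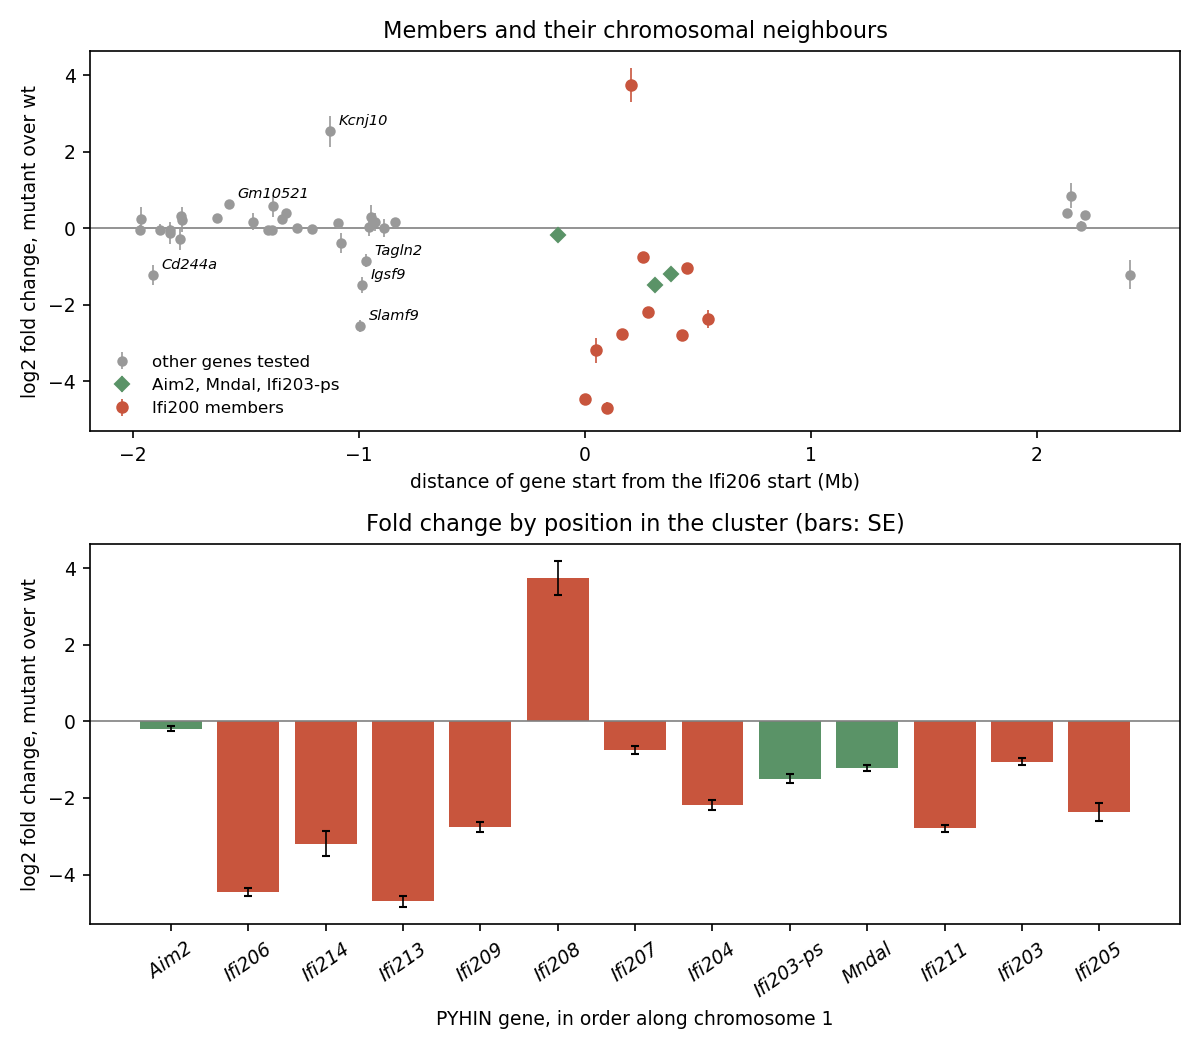
Log2 fold change, mutant over wt, with 1 SE of the limma fit as bars: above, the Ifi200 genes, Aim2, Mndal, Ifi203-ps and the other tested genes within 2 Mb against distance in Mb from the start of Ifi206; below, the PYHIN genes in order along chromosome 1. Ifi208 at 3.74 stands between Ifi209 at -2.76 and Ifi207 at -0.75.

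Reads of these genes can be hard to assign because the transcripts resemble one another. Of the 50-base words in the GENCODE M21 transcripts of a gene, the share also found in another PYHIN gene was 72.8% for Ifi211, 33.4% for Ifi209, 20.8% for Ifi208, 19.2% for Ifi204 and 18.6% for Ifi205. It was 15.8% for Ifi206, 15.6% for Ifi213, 14.5% for Ifi214, 12.2% for Ifi203 and 5.39% for Ifi207. Ifi211 shared most with Ifi205 (44.7% of its words), Ifi209 with Ifi214 and Ifi208 with Ifi213 (18.1%). With 100-base words the shares fell to 56.9% for Ifi211, 16.9% for Ifi209 and 5.92% for Ifi208. Exons of Ifi203 also overlap those of Mndal on the same strand. The treatment of reads with several matches was not stated, so levels of Ifi211 and Ifi209 in particular are uncertain. The 50-base words found in no other gene were 79.2% for Ifi208 and 74.4% for Ifi206. For Ifi206, 9.80% of the words also occur in genes other than these PYHIN genes. The part of shared reads in the level of any gene was not tested.

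Summed over the 10 genes, the transcripts made up 1438, 1323 and 1452 CPM in wt 1 to 3 and 451 and 541 CPM in mutants 1 and 2. The unequal falls changed the make-up of the sum. Ifi207 alone took 32.3% to 33.3% of the reads of the 10 genes in wt and 53.8% to 54.2% in the mutants. Ifi203, Ifi204 and Ifi207 together took 69.9% to 71.5% in wt and 90.5% to 90.6% in the mutants. These shares varied far less within a group than between the groups.

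**Figure D3:**
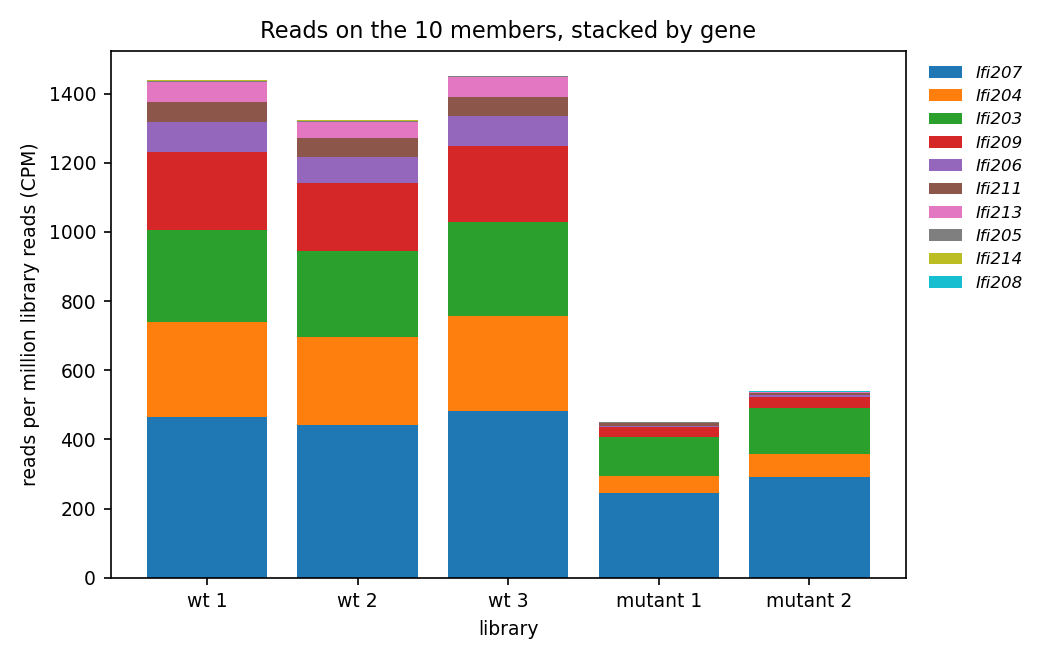
Summed level of the 10 Ifi200 genes in CPM in each library, stacked by gene. The mutant bars reach 451 and 541 CPM against 1323 to 1452 CPM in wt, and Ifi207 fills 53.8% to 54.2% of the mutant bars.

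Replicates of a group were often ordered alike across the genes. Wt 2 was the lowest wt library for 9 of the 10 genes, against 36.3% of all genes tested. That order rests on few reads for Ifi208 (4, 1 and 4 in wt 1 to 3) and Ifi214 (66, 42 and 43). The mutant order below likewise rests on 2 and 4 reads for Ifi214. Mutant 2 exceeded mutant 1 for 7 of the 9 lower genes, the exceptions being Ifi206 and Ifi205, while among all genes it did so for 50.6% with a median ratio of 1.00. Among the 8 genes with a wt mean above 100, the coefficient of variation over the wt libraries ran from 3.78% for Ifi211 to 19.1% for Ifi205. Shared reads between the genes and the small number of libraries are common to all of these values, and sex, age and library cannot be told apart among the wt mice.

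Other PYHIN genes of chromosome 1 were examined from a list of 12, of which 4 are in the table and 3 could be tested. Mndal, which carries an ISRE stretch differing at 0 of 60 bases from that of Ifi203, fell from 5569, 5228 and 5605 in wt to 2230 and 2511 in the mutants (log2 fold change -1.21, SE 0.0795, limma adjusted p = 0.000593). Ifi203-ps fell from 461.8, 393.1 and 459.7 to 143.9 and 164.8 (-1.49, SE 0.128, limma adjusted p = 0.00191). Aim2, the inflammasome sensor, stood at 1147, 1188 and 1239 in wt and at 1049 and 1042 in the mutants, a difference that did not pass the test (-0.19, SE 0.0737, limma adjusted p = 0.143). The mutant values of Aim2 were the lowest of the 5. Ifi202b, whose product p202 binds DNA and counteracts AIM2, had between 0 and 3.71 normalized counts in all libraries and was not tested.

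Within 2 Mb of the outermost starts, 74 genes besides the Ifi200 and other listed PYHIN genes are in the table, of which 35 were tested. Of these, 4 were lower and 2 higher in the mutants, or 17.1% against 8.6% of all genes. Slamf9, a receptor of the SLAM family 993 kb before Ifi206, fell from 2043, 1522 and 1858 to 349.4 and 263.7 (log2 fold change -2.56, SE 0.168, limma adjusted p = 0.000586) and stayed called with any 1 library left out. Igsf9 (-1.49), Tagln2, which binds actin (-0.85), and the SLAM family receptor Cd244a (-1.23) fell, while Kcnj10, a potassium channel (2.53), and Gm10521 (0.63) rose, with limma adjusted p from 0.0135 to 0.04. All 5 lost the call without wt 1, and all but Kcnj10 and Igsf9 did so without wt 2 and without wt 3; Kcnj10 also lost it without wt 2 and Igsf9 without wt 3. The number called was 6 with all libraries, 1 without wt 1, 2 without wt 2 or without wt 3, and 14 without mutant 1. With the listed PYHIN genes left out, the nearest tested neighbours did not pass the test. Dusp23, 838 kb before Ifi206, had a log2 fold change of 0.15 (limma adjusted p = 0.453). Fh1, 1588 kb beyond Ifi205, had one of 0.39 (limma adjusted p = 0.064). Between the Ifi200 genes lie 5 further genes of the table besides the listed PYHIN genes, none of which had enough reads to be tested.

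The interferon pathway was read from a list of 18 genes from the interferon receptor to ISGF3. In the mutants 7 of the 18 fell, 1 rose and 10 did not pass the test, with a median log2 fold change of -0.09, beside 4.89% of all genes called lower and 3.71% called higher. Irf7, which amplifies interferon production, fell from 18449, 16214 and 17988 to 1260 and 1256 (-3.80, SE 0.0784, limma adjusted p = 1.4e-05). The ISGF3 subunit Stat2 (-1.86) and Usp18 (-2.87), which restrains signalling at the receptor, also fell, with limma adjusted p of 0.00613 and 5e-05. The gene that rose, chosen for naming after its value was seen, was the receptor subunit Ifnar1 (0.40, SE 0.07, limma adjusted p = 0.0242).

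Of 33 interferon-induced effector genes tested, all 33 fell, by log2 fold changes from -1.07 to -5.23 with a median of -1.80, beside 4.89% of all genes called lower. Ifi44 (-5.23), Oasl1 (-3.79), Oas1g (-2.65) and Oasl2 (-2.42) had the lowest limma adjusted p, between 1.4e-05 and 5.9e-05. Ifih1, which encodes the RNA sensor MDA5, fell from 4272, 4213 and 4302 to 1672 and 1914 (-1.25, SE 0.0788, limma adjusted p = 0.00052). This list was chosen with earlier results of these libraries known, so its direction is not independent evidence. The fold changes of Ifi206 and Ifi213 lie inside its range. Those of Ifi203 (-1.05) and Ifi207 (-0.75) are smaller in size than any in it, that of Ifi203 only slightly.

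Of 25 listed genes for DNA sensing and the inflammasome, 6 fell and 19 did not pass the test. Their median log2 fold change was -0.19, beside 4.89% of all genes called lower. The 6 include Samhd1 and Cgas, the genes that the mutant alleles alter, so the count does not describe the other listed genes alone. The rest were the nucleic acid sensor Zbp1 (-3.51), the exonuclease Trex1 (-1.11) and the caspases Casp1 (-0.58) and Casp4 (-0.57), with limma adjusted p from 6e-05 to 0.0489. Sting1, which encodes the adaptor below cGAS, stood at 2127, 1984 and 2170 in wt against 1779 and 2140 in the mutants and did not pass (-0.10, SE 0.0988, limma adjusted p = 0.521). Its groups overlapped.

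The genes of mean normalized count 100 or more whose profile over the 5 libraries was most like the median of the 10 Ifi200 genes were ranked by the root-mean-square difference of log2 values after centring on the wt mean. Out of 9970 candidates, these were Phf11b (0.0947), Oas1g (0.107), Oasl2 (0.109), Phf11d (0.123) and Mx1 (0.132). Their log2 fold changes lay between -2.66 and -2.42. The genes most like Ifi208 were Samd4 (0.381), F13a1 (0.555), Ms4a4a (0.592), Kcnj10 (0.79) and Apoe (0.793), with log2 fold changes from 2.53 to 3.32. In all 5, mutant 2 was above mutant 1, as it was for Ifi208. The nearest gene to Ifi208 was farther from it than the fifth gene was from the median profile, and Ifi208 rests on few reads. These genes were selected for likeness over 5 libraries and carry no test here.

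**Figure D4:**
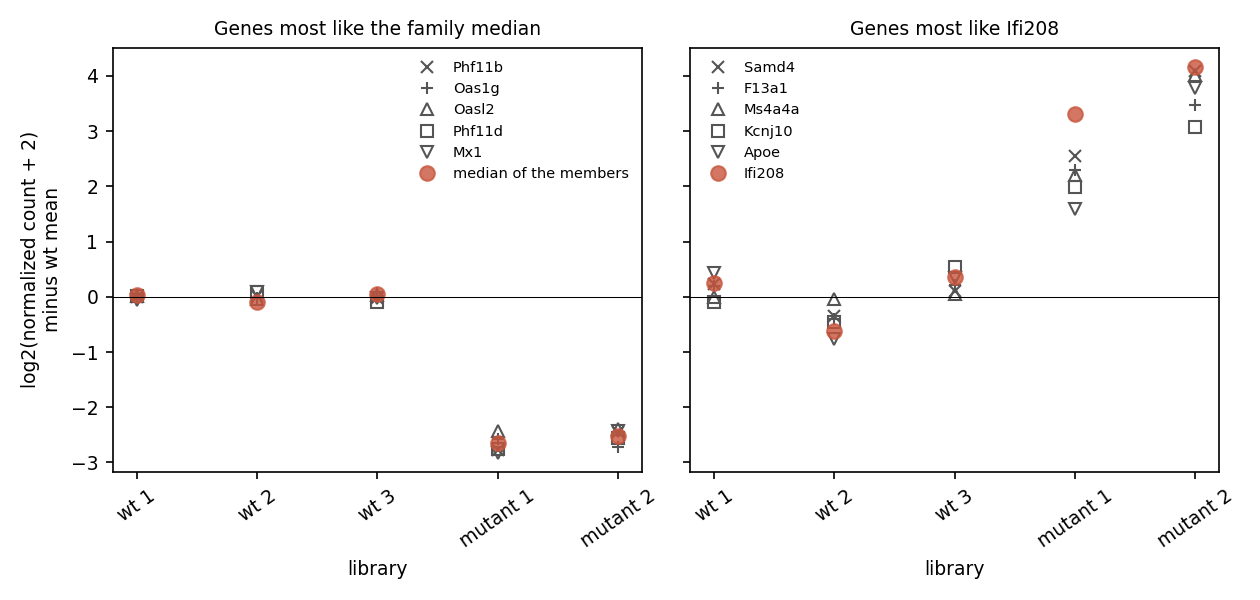
Log2 values centred on the wt mean in each library, for the median of the 10 Ifi200 genes with its 5 most alike genes (left) and for Ifi208 with its 5 (right). The median profile lies at -2.64 and -2.51 in the mutants and Ifi208 at 3.31 and 4.16.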

How the data were processed

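Reads were processed with STAR, featureCounts of Subread, DESeq 1.6.1 and mouse build mm10, per the submitters' processing notes; their settings, annotation and strand option were not stated. The libraries are strand specific, per the labels. The deposited signal of a library is a read count divided by 1 size factor: 100% of values came out as whole reads within 0.001 reads, and library totals and CPM use these reads. The authors' deposited log2 fold changes (wt over mutant) and adjusted p-values were copied for the 10 genes, Aim2, Mndal and Ifi203-ps. Their adjusted p-values over all genes gave the 7.17% share under 0.05. The authors' deposited means differ from the means of the 5 libraries, so that fit may have used others, which are not analysed here.

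The test was limma 3.58.1 (R 4.3.3) in trend mode on log2 of the normalized count plus 2, over genes reaching 10 in 2 or more libraries, two-sided, with Benjamini-Hochberg adjustment over all genes tested at 0.05. The added 2 understates fold changes of genes with few reads. The fit was tested on simulated data drawn with the same dispersion for every gene and group. The real mutant libraries differed from each other more than the wt libraries did, so that test gives no error rates for these data. Alternatives were edgeR 4.0.16 and DESeq2 1.42.0 on recovered reads, pseudocounts 1 and 8, no filter on low values, scaling to the library total, replicate number as a block, and leaving out each library. A count of 0 allows up to 3 reads, or 0.0906 to 0.11 CPM, and such limits cover counting error only. Replicates differed by a mean chi-square per gene of 14.2 to 25.9 among wt libraries and 59.9 for the mutants, so no library was a copy of another. Age or sex sets the 3 wt libraries apart as different sources, but no label says so of the 2 mutant libraries, whose spread, on which the p-values also rest, may be technical.

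Members and gene lists were chosen with earlier results of these data known. Named were all 10 genes, Samhd1 and Cgas, tested PYHIN genes, called and nearest flanking genes, the 4 called genes of lowest adjusted p of each pathway list with genes the series title names, and the 5 nearest profiles; 1 gene that this rule names is not reported here. The table covers chromosomes 1 to 19, and 370 genes have no symbol. Positions are those of GENCODE M21 (GRCm38), matched by Ensembl identifier for 97.1% of genes; only 2.27% of these have the same start in the table, whose coordinates were not used. Lengths are those deposited, and for all 10 genes they equal the GENCODE exon length. Promoters are from RefSeq (GRCm38.p6).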

Additional observations from a re-analysis of the deposited data

How the results depend on the processing

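Of 118 fold changes of the 10 genes under the alternatives, 111 stayed within the spread between replicates, 7 moved by more and 0 reversed. Those of scarce genes moved with the method: Ifi208 went from 3.74 to 4.44 with edgeR, 4.50 with DESeq2 and 2.63 with pseudocount 8, and Ifi214 from -3.19 to -3.80, -3.84 and -2.22. The median of the 10 genes was -2.20 with pseudocount 8 and -2.88 to -2.53 when 1 library was left out. The 9 Ifi200 genes called lower became 8 without any 1 wt library. Ifi208 has no value without either mutant, since 1 library then passes the filter. Genes called higher went from 556 to 642 with edgeR, 1121 with DESeq2 and 29 to 2062 when 1 library was left out (29 without wt 1, 2062 without mutant 1). Genes called lower went from 732 to 669 with edgeR, 1308 with DESeq2 and 173 to 2929 (173 without wt 1, 2929 without mutant 1). Flanking genes called went from 6 to 12 with DESeq2 and 1 to 14 when 1 library was left out. Sting1 ran from -0.23 to 0.033, its sign turning without mutant 1. The cause of these changes was not tested.

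Replicate numbers are shared by wt and mutant, but the labels do not say that they pair mice, and the deviations of same-numbered libraries correlated at -0.228 and -0.362 across genes. With the replicate block, which leaves wt 3 without a partner, 6 genes were called higher and 75 lower, 5 of the 9 lower Ifi200 genes stayed called, Ifi208 was not called, and 0 other PYHIN genes (limma adjusted p = 0.0763 for Mndal and 0.11 for Ifi203-ps) and 1 flanking gene, Slamf9, were. Cgas, Trex1, Stat2 and Ifih1 also lost their calls there, with limma adjusted p of 0.0703, 0.0936, 0.109 and 0.0661. Depth limits the fold changes of Ifi214, with at most 4 reads in a mutant library, and of Ifi208, with at most 4 in a wt library.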
